A study of Mus musculus with 36 samples.

Results

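The transcripts described here are those of 10 genes of natural killer (NK) cells and cytotoxic lymphocytes, Nkg7, Gzma, Gzmb, Prf1, Klrd1, Ncr1, Tbx21, Eomes, Ccl5 and Tigit, taken by symbol from 3 tables of normalized RNA-seq counts of mouse B cell progenitors. All 10 had a row in the table of sorted cells (46078 rows) and in the table of Pax5-/- cells (35896 rows), and 6 had a row in the table of cultured Wt and Sirt7-/- cells (18721 rows). The study asked how the deacetylase SIRT7 and acetylation of the transcription factor PAX5 at the lysine changed in K198Q and K198R act in early B cell development. Each table held 8 libraries in 4 groups of 2 replicates.

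The sorted libraries came from the bone marrow of 129Sv mice, 2 Wt littermates and 2 Sirt7-/- mice that lack exons 4 to 10 of Sirt7. Every mouse gave a pro-B library (gated as B220+, IgM- and CD43+) and a pre-B library (gated as B220+, IgM- and CD43-). The Pax5-/- cells were C57BL/6 progenitors, Lin-B220+IgM-, which were expanded on OP9 stroma with IL-7, SCF and FLT3-L. They carried a retroviral empty vector (EV), wild-type PAX5 (Pax5Wt), PAX5 K198Q or PAX5 K198R and were sorted for a human CD4 reporter. K198Q puts a glutamine in place of the lysine as a mimic of its acetylated form, and K198R an arginine as a mimic of its deacetylated form. The cells of the remaining table were pro-B cells grown in the same way, Wt with EV and Sirt7-/- with EV, Pax5Wt or K198R. By the study's general statement Wt and Sirt7-/- mice were 129Sv adults unless otherwise specified, so that the 2 cultured tables also differ in strain, and the Pax5-/- progenitors came from fetal liver, where the labels name bone marrow. No NK marker was named among the antibodies of the gates, and where nothing ties a culture replicate to its own animal the p-values measure the spread between these samples alone.

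NK cells are innate lymphocytes that kill infected or transformed cells without a rearranged antigen receptor. Killing runs through granules that hold the pore former perforin and the granzyme proteases, and is set by the balance of activating and inhibitory surface receptors. The T-box factors T-bet and EOMES drive the NK programme, whereas PAX5 commits lymphoid progenitors to the B cell lineage and represses genes of other lineages. Pro-B and pre-B cells are not cytotoxic, so in a bulk library of sorted progenitors low counts of these genes can come from a few cells or from little RNA in many, and fewer cells of a type and less RNA per cell cannot be told apart.

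The stage of each sorted library was taken from its title, since the cell type label gave the other stage for 4 of the 8, and genotype and stage markers followed the titles. In the sorted table, from which whole reads could be recovered (50004827 to 55536608 reads per library), Sirt7 stood at 2692 and 2533 normalized counts in Wt pro-B cells and at 363 and 366 in Sirt7-/- pro-B cells, and at 5613 and 5219 against 1066 and 821 in pre-B cells. Il2ra, a marker of pre-B cells, ranged from 1593 to 3760 in the pro-B and from 16330 to 26040 in the pre-B libraries, and Igll1, the surrogate light chain gene of pro-B cells, from 22750 to 29530 and from 494 to 4122. The pre-B library with the highest Igll1 was that of Sirt7-/- replicate 2. This mouse also stood apart from the other 3 in most of the genes described here, and the differences between genotypes are given with and without it.

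In Wt pro-B cells Nkg7 was the most abundant of the 10 transcripts per kilobase of summed exon length, at 227 normalized counts per kb (mean of 2), followed by Ccl5 at 96.8 and Tigit at 86.3. Prf1, Ncr1, Gzma, Tbx21, Klrd1 and Eomes lay between 35.6 and 19.1 per kb, and Gzmb was lowest at 4.87. The ranges of neighbours in this order were separate between Nkg7 and Ccl5, between Tigit and Prf1 and between Eomes and Gzmb, and overlapped elsewhere. In Sirt7-/- pro-B cells Nkg7 (360 per kb) and Ccl5 (301 per kb) again led and Gzmb (11.2 per kb) came last, but every pair of neighbours overlapped, with the 2 mice far apart.

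Among the granule genes, Nkg7 (chr7:43437073-43438249, plus strand, mm10) encodes a protein of the cytotoxic granule membrane. It was at 210 and 204 normalized counts in Wt pro-B cells, and at 252 and 406 in Sirt7-/- pro-B cells, in replicate order. In pre-B cells it was at 59.6 and 41.5 in Wt and at 22.4 and 169 in Sirt7-/-, so that the 2 Sirt7-/- mice lay on either side of the Wt mice. Prf1 (chr10:61297833-61304680, plus strand), the gene of perforin, was at 88.8 and 95.1 in Wt and at 120 and 167 in Sirt7-/- pro-B cells. In pre-B cells it was at 45.0 and 27.3 in Wt and at 66.1 and 150 in Sirt7-/-. Both Sirt7-/- libraries were above both Wt libraries at each stage.

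The 2 granzyme genes were rarer. Gzma (chr13:113093825-113100981, minus strand), the gene of a tryptase-like granzyme, was at 16.8 and 35.4 in Wt and at 31.2 and 110 in Sirt7-/- pro-B cells, and at 0 and 2.19 in Wt and 0 and 52.7 in Sirt7-/- pre-B cells. Gzmb (chr14:56258838-56262260, minus strand), whose product cleaves caspases in the target cell, was at 2.80 and 11.2 in Wt and at 5.50 and 26.8 in Sirt7-/- pro-B cells. In pre-B cells it was at 0 in both Wt libraries, and at 0 and 32.7 in the Sirt7-/- libraries. For both granzymes the high Sirt7-/- value belonged to replicate 2 at each stage, and replicate 1 lay within the Wt range for both genes at both stages.

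Among the receptors, Ncr1 (chr7:4337724-4345164, plus strand) encodes the activating receptor NKp46, which marks NK cells across mouse strains. It was at 68.2 and 39.2 in Wt and at 24.8 and 219 in Sirt7-/- pro-B cells. Among the pre-B libraries it had reads in Sirt7-/- replicate 2 alone, at 121. Klrd1 (chr6:129591782-129598775, plus strand) encodes CD94, the partner of the NKG2 receptors, and was at 15.0 and 35.4 in Wt and 12.8 and 102 in Sirt7-/- pro-B cells. In pre-B cells it was at 5.23 and 7.65 in Wt and at 0 and 61.1 in Sirt7-/-. Tigit (chr16:43648867-43664146, minus strand), an inhibitory receptor of NK and T cells, went another way. It was at 66.4 and 92.3 in Wt and at 58.7 and 47.1 in Sirt7-/- pro-B cells, while 3 pre-B libraries had no read and Sirt7-/- replicate 2 was at 10.5. Of the 10 genes it was the one whose pro-B level in Sirt7-/- replicate 2 was not the highest of the 4 mice.

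The T-box factors differed from each other. Eomes (chr9:118478212-118486132, plus strand) was at 85.1 and 73.7 in Wt and at 29.3 and 244 in Sirt7-/- pro-B cells, and at 0 in both Wt and at 3.20 and 150 in the Sirt7-/- pre-B libraries. Tbx21 (chr11:97098071-97115331, minus strand), the gene of T-bet, was at 60.8 and 57.8 in Wt and at 79.8 and 154 in Sirt7-/- pro-B cells. In pre-B cells it was at 69.0 and 91.8 in Wt, and at 316 and 214 in Sirt7-/-, where replicate 1 was the higher. Tbx21 thus did not follow the mouse that was high for Eomes in pre-B cells. Ccl5 (chr11:83525778-83530518, minus strand), a chemokine stored and released by cytotoxic lymphocytes, was at 96.3 and 89.5 in Wt and at 105 and 473 in Sirt7-/- pro-B cells, and at 2.09 and 2.19 in Wt and 11.7 and 325 in Sirt7-/- pre-B cells.

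**Figure D1:**
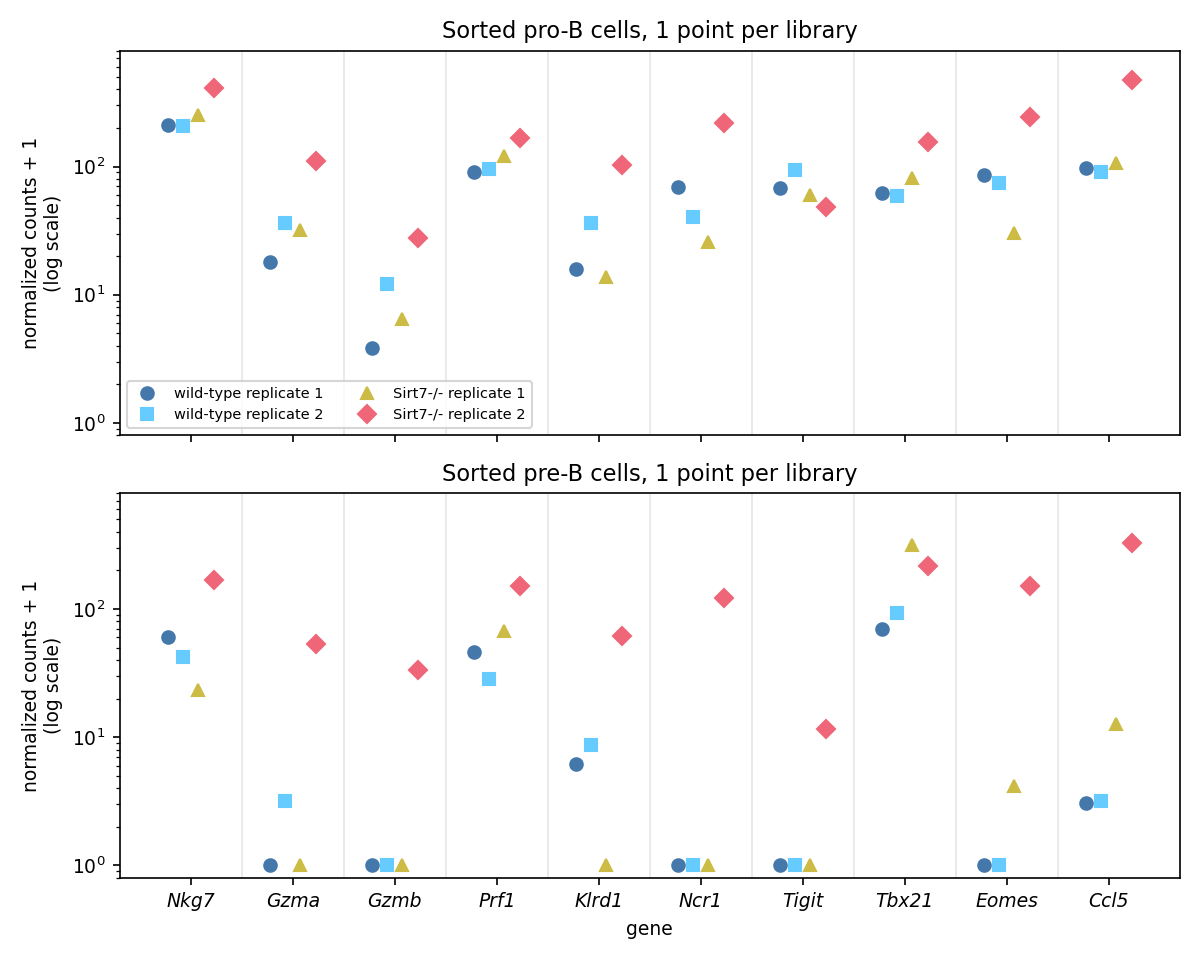
Normalized counts plus 1 (log axis) of the 10 genes in the 8 sorted libraries, pro-B cells above and pre-B cells below, with 1 point per mouse. Sirt7-/- replicate 2 is the highest of the 4 mice for 9 of the 10 genes at each stage, with Tigit the exception in pro-B and Tbx21 in pre-B cells.

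Library by library, Sirt7-/- replicate 2 held the highest value of the 4 mice for 9 of the 10 genes in pro-B cells, where it was the highest for 27.5% of the 17649 genes tested. It was at least 2-fold above each of the other 3 mice, values under 3 normalized counts being taken as 3, for 6 of the 10, against 1.34% of all genes. In pre-B cells it was the highest for 9 of the 10 and at least 2-fold above the others for those 9, against 29.8% and 3.12% of all genes. In pro-B cells the ratio to the highest of the other 3 mice was 4.49 for Ccl5, 3.20 for Ncr1, 3.10 for Gzma, 2.89 for Klrd1, 2.87 for Eomes and 2.39 for Gzmb, and 1.93 for Tbx21, 1.61 for Nkg7 and 1.39 for Prf1. In pre-B cells the same ratio was 27.7 for Ccl5, 7.99 for Klrd1, 2.83 for Nkg7 and 2.26 for Prf1. It was 46.8 for Eomes (95% counting interval 15.7 to 230, 142 reads against 3) and 24.1 for Gzma (6.33 to 204, 50 reads against 2). Set against a floor of 3 reads per library because the other 3 libraries had none, it was at least 37 for Ncr1, at least 9.96 for Gzmb and at least 3.21 for Tigit. These genes were singled out with this library in view, so the shares describe it and carry no test. Gzmb reached the filter of 10 normalized counts in both libraries of this mouse (26.8 and 32.7). Elsewhere it did so only in the Wt replicate 2 pro-B library (11.2), so it was among the genes tested through this mouse.

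Sirt7-/- replicate 1 did not share this. Its pro-B library was above both Wt libraries for 4 of the 10 genes, below both for 4 and between them for 2, whereas replicate 2 was above both for 9 and below both for 1. In pre-B cells replicate 1 was above both Wt libraries for 4, below both for 2 and within their range for 4, and replicate 2 was above both for 10. The summed normalized counts of the 10 genes were 710 and 734 in Wt, 720 in Sirt7-/- replicate 1 and 1950 in Sirt7-/- replicate 2 among the pro-B libraries. The pre-B sums were 181, 173, 419 and 1280 in the same order, and Tbx21 supplied 316 of the 419 in replicate 1.

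Over the 2 mice per genotype, no gene of the 10 passed the threshold between Sirt7-/- and Wt in pro-B cells (0 of 10 by limma at an adjusted p under 0.05, 0 at an unadjusted p under 0.05, and 0 by edgeR and 0 by DESeq2 on the recovered reads). Over all genes tested 0.0623% were called and 5.94% had an unadjusted p under 0.05. Their differences on the log2(normalized count + 1) scale were above 0 for 9 of 10, with a median of 0.64 against 0.00 over all genes tested. With Sirt7-/- replicate 1 alone against the 2 Wt mice, 5 were above 0 and 5 below, with a median of 0.06. The smallest adjusted p was that of Tbx21, with a log2 difference of 0.89 ± 0.38 (SE, n = 2 mice per group, limma adjusted p = 0.841). In pre-B cells limma again called 0 of 10, where 0.0850% of all genes were called. At an unadjusted p under 0.05 there were 4 (Tbx21, Prf1, Ccl5 and Eomes), against 13.6% of all genes, edgeR called 0 and DESeq2 called 3 (Ccl5, Eomes and Tbx21), against 4.11% of all genes by DESeq2. All 10 differences were above 0, with a median of 1.90 against 0.02 over all genes, and with replicate 1 alone 4 were above 0 and 3 below, with a median of 0.00. In replicate 1 Ncr1, Tigit, Gzmb, Gzma and Klrd1 had 0 reads and Eomes had 3. The tally and its median thus rest on near-empty values and do not show a lack of change in that mouse. The groups were apart for 4 of the 10 (Tbx21, Prf1, Ccl5 and Eomes), all higher in Sirt7-/- cells, against 22.1% of all genes.

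The genes of this pre-B comparison differed in how far they rested on replicate 2. Tbx21 was higher in both Sirt7-/- mice than in both Wt mice, by 1.69 ± 0.38 on the log2 scale (SE, n = 2, limma adjusted p = 0.160, DESeq2 adjusted p = 0.00936, range over the alternatives 0.00936 to 0.497), and Prf1 likewise, by 1.48 ± 0.46 (SE, n = 2, limma adjusted p = 0.238). Ncr1, with 115 reads in the Sirt7-/- pre-B libraries and none in Wt, was at least 18.9-fold higher against a floor of 3 reads per library, and Eomes, with 145 reads against none, at least 23.8-fold. Ccl5 was 79.1-fold higher (counting interval 30.6 to 292, 319 reads against 4) and Gzma 24.8-fold (6.51 to 210, 50 reads against 2), intervals that cover counting error and not the spread between mice. With Sirt7-/- replicate 1 alone the log2 difference from the Wt mean was 2.02 for Ccl5, 1.97 for Tbx21, 0.90 for Prf1 and −1.12 for Nkg7. With replicate 2 alone it was 6.70 for Ccl5. For the other genes no difference is given for replicate 1, since it would be set by the pseudocount. Eomes had 3 reads there and 0 in Wt. Gzma had 0 reads against 0 and 2, and Klrd1 0 against 5 and 7. Ncr1, Tigit and Gzmb had no read in replicate 1 or in Wt. The genes were chosen with replicate 2 in view, so its own differences carry no test.

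Other NK genes were highest in replicate 2 in some lists more often than over all genes, and in others not. Of the 19 NK receptor and adaptor genes tested, 11 were highest in its pro-B library and 9 in its pre-B library, as were 5 and 3 of the 5 NK cytokines and chemokines. Of the other NK lists, 3 of 13 granule genes were highest and 5 lowest in its pro-B library, as were 6 and 5 of 14 transcription factors and 4 and 5 of 13 cytokine and chemokine receptors. In its pre-B library 7, 7 and 4 of these were highest and 3, 2 and 1 lowest. The counts of highest genes stand beside the shares over all genes given above, 27.5% and 29.8%, and the share of all genes that were lowest was not computed. As examples picked after their values were seen, Il2rb, the shared receptor chain for IL-2 and IL-15, was at 280 and 427 in Wt pro-B cells and at 304 and 1007 in Sirt7-/- pro-B cells, and at 12.5 and 7.65 against 27.7 and 685 in pre-B cells. Klrk1, the gene of NKG2D, was at 38.3, 50.3, 27.5 and 117 in the 4 pro-B libraries in the same order, and among the pre-B libraries had reads in replicate 2 alone, at 109. Ctsw, a cathepsin of cytotoxic cells, was at 80.4, 106, 55.0 and 193 in pro-B and at 3.14, 5.47, 7.46 and 142 in pre-B cells. All 3 had the shape of Ncr1 and Eomes, with a level in the replicate 2 pre-B library above that of every Wt pro-B library.

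The T cell genes were mixed. Cd3e, a chain of the T cell receptor complex, was at 18.7 and 44.8 in Wt and 22.0 and 10.2 in Sirt7-/- pro-B cells and had no read in any pre-B library, and the T cell list was highest in the replicate 2 pro-B library for 3 of 20 genes. In its pre-B library 12 of the 20 were highest, although the summed list was at 8330 normalized counts there, against 10100, 8100 and 9760 in the Wt and replicate 1 libraries, with Cd2 the most abundant gene. Trdc, the constant region of the δ chain, was at 67.4 in the replicate 2 pre-B library and at 9.41, 5.47 and 2.13 in the others.

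Siglech, a marker of plasmacytoid dendritic cells, was at 492 and 497 in the pro-B and pre-B libraries of replicate 2 and at no more than 108 in the others. Of 10 genes of these cells, 8 were highest in its pro-B and 7 in its pre-B library. The 10 erythroid genes summed to 55700 and 82200 there, with the globin gene Hba-a1 the most abundant, against 17200 to 26800 in the other 6 libraries, where Tfrc was the most abundant. The 15 myeloid genes went the opposite way, with pro-B sums of 91700 and 61100 in Wt, 71800 in replicate 1 and 16200 in replicate 2, and Ngp the most abundant in all 4. Their pre-B sums were 26100 and 22300 in Wt, 16100 in replicate 1 and 12400 in replicate 2, with Itgam the most abundant. Between Sirt7-/- and Wt pre-B cells 14 of the 15 had a difference below 0, with a median of −1.45 against 0.02 over all genes, and limma called 0. The part of any of these cell types, or of the CD43 gate, in the values of the 10 genes was not tested.

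**Figure D2:**
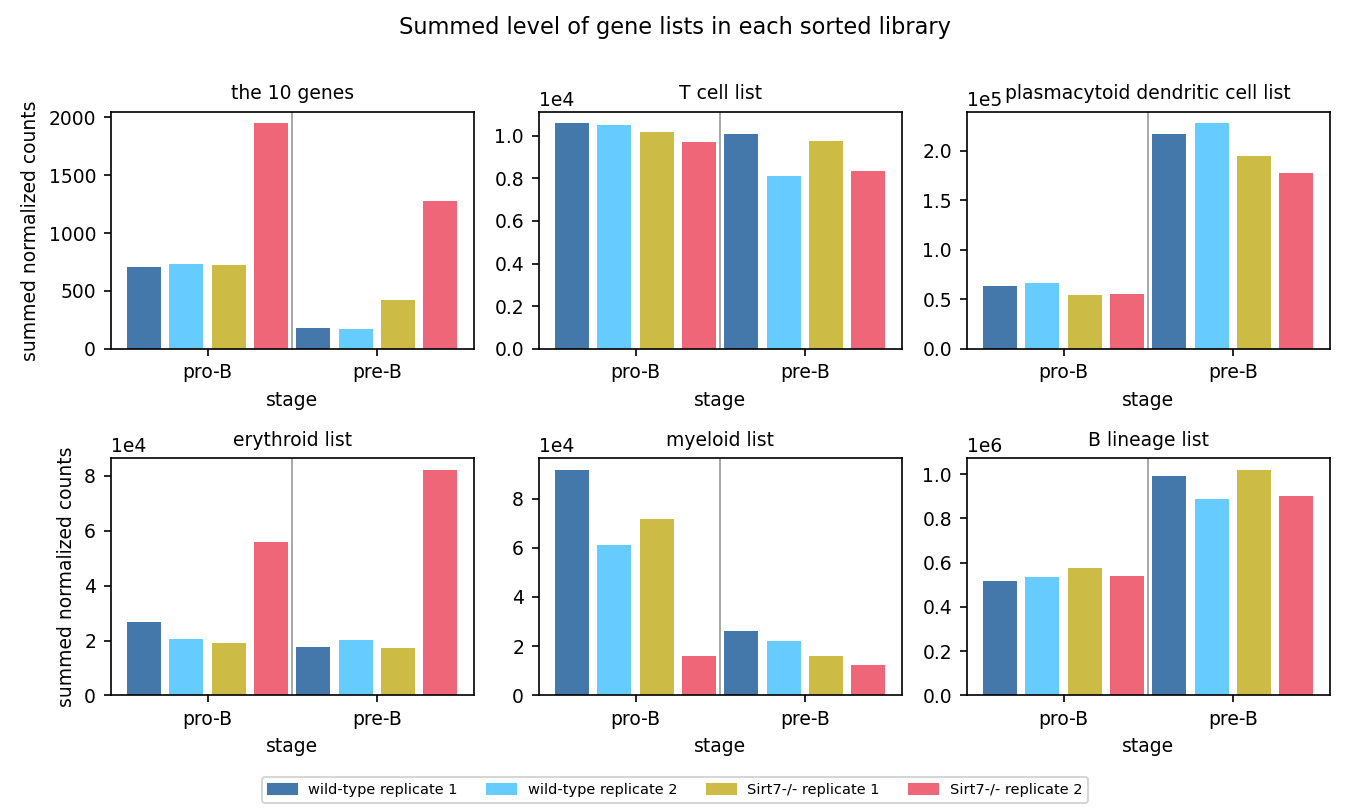
Summed normalized counts of the 10 genes and of marker lists of other cell types in the 8 sorted libraries, with 1 bar per library. Sirt7-/- replicate 2 is above the other 3 mice for the 10 genes and the erythroid list at both stages, and below them for the myeloid list at both stages.

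From the pro-B to the pre-B stage most of the 10 transcripts were lower in Wt mice. Limma called 3 of 10 lower and none higher, where 40.2% of all genes tested were called and 22.0% were called lower. Tigit fell from 170 reads over the 2 pro-B libraries to 0, at least 24.7-fold (limma adjusted p = 0.00398), and Eomes from 170 reads to 0, at least 24.7-fold (limma adjusted p = 0.0219). Ccl5 fell from 199 reads to 4, or 43.5-fold (counting interval 16.7 to 161, limma adjusted p = 0.0311). With each mouse as a block the count was 7, the added genes being Nkg7 (log2 difference −2.04, adjusted p = 0.0355), Prf1 (−1.36, adjusted p = 0.0314), Ncr1 (adjusted p = 0.0106) and Gzma (adjusted p = 0.0382), DESeq2 also called 7, and edgeR called 1. The block called 43.1% and DESeq2 42.8% of all genes. Over all alternatives the adjusted p ranged from 0.00437 to 0.433 for Nkg7, 0.0238 to 0.393 for Prf1, 0.00239 to 0.357 for Ncr1 and 0.0178 to 0.442 for Gzma. The groups were apart for all 10 genes, 9 lower and Tbx21 higher in pre-B cells, against 38.1% lower and 34.5% higher over all genes, and the median log2 difference was −3.30 against −0.04.

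These calls were sensitive to single libraries. Without any 1 Wt library the adjusted p of Ccl5 was between 0.103 and 0.111 and that of Eomes between 0.0795 and 0.0889, with almost the same fold change, and without both libraries of either Wt mouse they were at most 0.237 and 0.201. Without both libraries of Wt replicate 1 the adjusted p of Tigit was 0.0777, and without both of Wt replicate 2 it was 0.0948. In the other direction, Nkg7, Prf1, Ncr1 and Gzma were also called lower, 7 genes in all, without the pre-B library or both libraries of either Sirt7-/- mouse, which share the estimate of the spread.

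In Sirt7-/- mice 2 of the 10 passed the threshold, where 35.7% of all genes were called, 16.5% higher and 19.2% lower. Tigit fell by 3.98 ± 1.08 (log2, SE, n = 2, limma adjusted p = 0.0277), a call lost without both libraries of replicate 1 (−2.06, adjusted p = 0.126), without the Sirt7-/- pro-B library of replicate 1 (0.111) or 2 (0.0927), without the Wt pro-B library of replicate 1 (0.0508) or 2 (0.0514), and without both libraries of Wt replicate 1 (0.0832) or 2 (0.0851). With 0 pre-B reads in Sirt7-/- replicate 1 and 10 in replicate 2, the size of the Tigit fall rests in part on the pseudocount. Tbx21 rose by 1.22 ± 0.38 (log2, SE, n = 2, limma adjusted p = 0.0449). The mouse block lost this call (adjusted p = 0.0765) and added Nkg7 (−2.35, adjusted p = 0.0264), where it called 38.5% of all genes, and without both libraries of replicate 1 Tbx21 differed by 0.47 (adjusted p = 0.473, the highest of its alternatives). Its call held without the pro-B library or both libraries of Sirt7-/- replicate 2 and was lost in the other 10 cases of a library or mouse left out (adjusted p 0.0531 to 0.473). Without both libraries of replicate 2 the difference was −3.44 for Nkg7 and −3.06 for Ccl5. That fit leaves Sirt7-/- replicate 1 alone in its groups, so no call is read from it. Ncr1 and Gzma had 0 pre-B reads in that mouse, so their differences would be set by the pseudocount. Tested directly, the difference between the 2 genotypes in this step was called for 0 of 10 genes by limma, edgeR and DESeq2, with 0 at an unadjusted p under 0.05, where 0.00567% of all genes were called and 5.43% had an unadjusted p under 0.05.

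Read within each mouse, the step differed most in Sirt7-/- replicate 2. The pre-B level was a median of 1.08% of the pro-B level over the 10 genes in Wt replicate 1, 4.30% in Wt replicate 2 and 4.44% in Sirt7-/- replicate 1, and 60.5% (22.4 to 139%) in Sirt7-/- replicate 2. The pre-B level was under 50% of the pro-B level for 8, 9 and 8 of the 10 genes in the first 3 mice and for 3 in the last. The low medians rest in part on empty values, since 5, 4, 5 and 0 of the 10 genes had no pre-B read in the same order. The genes were chosen with replicate 2 in view, so these medians and counts describe it and carry no test. The share of all genes under 50% was not computed. Tbx21 was above its pro-B level in all 4, at 114%, 159%, 396% and 139%. The pro-B genes Igll1 and Vpreb1 also kept more of their level in the pre-B library of that mouse, 16.9% and 15.7%, against 2.13%, 4.07% and 4.48% for Igll1 and 1.81%, 1.96% and 4.08% for Vpreb1. Klrk1 stood at 92.6% and Siglech at 101% there, against 0% and at most 3.38% in the other mice. How far carry-over of cells between the 2 gates contributed was not tested.

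**Figure D3:**
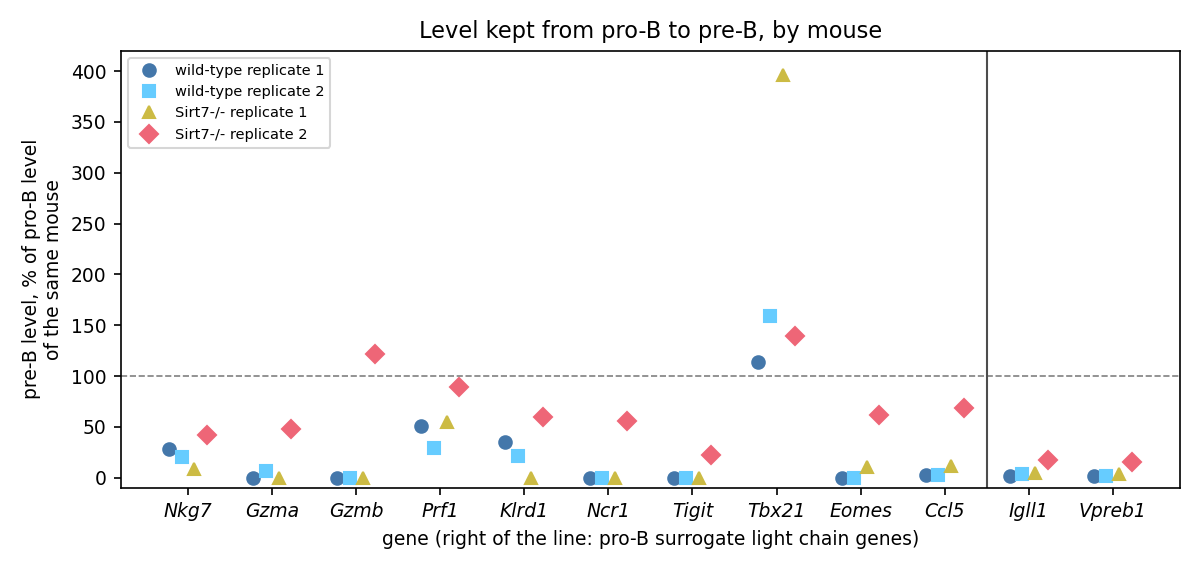
Pre-B level as a percent of the pro-B level of the same mouse (vertical axis) for the 10 genes and for the pro-B markers Igll1 and Vpreb1, with 1 point per mouse. In 3 mice most of the genes lie under 10%, and in Sirt7-/- replicate 2 they lie between 22.4 and 139%.

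At this step 22.0% of all genes were called lower and 18.1% higher in Wt mice, against which the wider NK lists are read. In Wt mice 4 of 19 NK receptor and adaptor genes were called lower, among them Fcer1g, the shared signalling chain (log2 difference −1.69, limma adjusted p = 0.00490), with none higher, the first a share near that of all genes. Of the 13 granule genes 5 were lower, including Ctsw (−4.18, adjusted p = 0.0359) and the death ligand gene Tnfsf10 (−4.87, adjusted p = 8.49e-04), and 3 were higher, including Stx11 (1.65, adjusted p = 9.10e-04), a syntaxin of granule release. Of 14 transcription factors 8 were lower, including Tox (−5.21, adjusted p = 6.83e-04) and Gata3 (−4.48, adjusted p = 0.0120), and 1 was higher, Klf2 (2.52, adjusted p = 0.00394). Of 13 cytokine and chemokine receptors 4 were lower, including Il2rb (−5.00, adjusted p = 0.0246) and Cx3cr1 (−3.56, adjusted p = 0.00572), and 3 higher, led by Il21r (3.39, adjusted p = 1.48e-04). Beside them 14 of 20 T cell genes were lower and 1 higher, and 14 of 18 B lineage genes were higher and 3 lower. In Sirt7-/- mice the counts were 3 lower of 19, 4 lower and 3 higher of 13, 4 lower and 2 higher of 14, and 1 lower and 2 higher of 13 for the same NK lists, where 19.2% of all genes were called lower and 16.5% higher.

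The Pax5-/- cells held another subset of these transcripts. Nkg7, Klrd1, Ccl5, Gzma and Prf1 passed the filter of 10 normalized counts in 2 libraries. Ncr1 and Gzmb were listed at 0 in all 8 libraries, and Eomes, Tbx21 and Tigit did not exceed 3, so the T-box factors and NKp46 that define NK cells were at or near 0. Per kilobase, Nkg7 (567) and Klrd1 (480) led in EV cells with overlapping ranges, followed by Ccl5 (94.7), Gzma (13.6) and Prf1 (6.98), each below the range of its predecessor. The depth of these libraries and of the cultured Sirt7-/- libraries is unknown, since no common step of 1 read could be read from the values.

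Nkg7 was highest with EV, at 468 and 569 normalized counts, followed by K198Q at 260 and 303, Pax5Wt at 192 and 219 and K198R at 109 and 77.7. No 2 of the 4 groups overlapped. Klrd1 was at 729 and 501 with EV, 483 and 327 with K198Q, 261 and 151 with Pax5Wt and 194 and 79.7 with K198R, where Pax5Wt and K198R overlapped. Gzma was low and uneven, at 8.83 and 18.5 with EV, 9.17 and 25.7 with Pax5Wt, 21.5 and 24.5 with K198Q and 2.61 and 2.08 with K198R. Ccl5 was at 63.6 and 118 with EV, 14.0 and 12.8 with Pax5Wt, 34.5 and 66.0 with K198Q and 164 and 17.3 with K198R, where the 2 replicates spanned the range of EV and of K198Q. Prf1 was at 19.2 and 16.9, 11.6 and 11.2, 17.7 and 7.55, and 7.66 and 2.48 in the order EV, Pax5Wt, K198Q and K198R.

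Against EV, Pax5Wt lowered Nkg7 (log2 difference −1.33 ± 0.22, SE, n = 2, limma adjusted p = 0.0225), which was the only call among the 5 genes tested, where 3.25% of all genes were called. With the replicate number as a block Klrd1 was called as well (−1.60, adjusted p = 0.00255), where 10.1% of all genes were called. The median log2 difference of the 5 was −1.33 against 0.00 over all genes. Without either K198R library 3 genes were called, Ccl5 (−2.61, adjusted p = 0.0220 and 0.0193) and Klrd1 (−1.60, adjusted p = 0.0406 and 0.0389) besides Nkg7. The Nkg7 call was lost on leaving out either EV library (adjusted p = 0.0928 and 0.156) or either Pax5Wt library (0.139 and 0.134). K198R lowered Nkg7 (−2.48 ± 0.22, SE, n = 2, limma adjusted p = 8.70e-04), which held without each library in turn (adjusted p at most 0.0115), and Klrd1 (−2.27 ± 0.45, SE, n = 2, limma adjusted p = 0.0192), which was lost without EV replicate 1 (0.123), EV replicate 2 (0.0613) or K198R replicate 2 (0.0633). These were 2 of 5 genes, where 9.92% of all genes were called and 6.05% called lower. The replicate block called 4, adding Gzma (−2.05, adjusted p = 0.0313) and Prf1 (−1.79, adjusted p = 0.0454), where it called 21.2% of all genes. K198Q against EV gave 0 calls of 5 by limma, with Nkg7 at −0.87 ± 0.22 (SE, n = 2, limma adjusted p = 0.218) and 1 gene at an unadjusted p under 0.05, where 0.922% of all genes were called and 7.86% had an unadjusted p under 0.05. These 3 comparisons share the EV libraries.

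Between the PAX5 constructs, K198R was below K198Q for Nkg7 (log2 difference −1.60 ± 0.22, SE, n = 2, limma adjusted p = 0.00974) and for Gzma (−2.85 ± 0.61, SE, n = 2, limma adjusted p = 0.0412), 2 of 5 genes where 5.01% of all genes were called and 3.55% called lower, and the replicate block added Klrd1 (−1.67, adjusted p = 0.00202), where it called 13.1%. The Nkg7 call was lost without K198Q replicate 1 (adjusted p = 0.0598) or replicate 2 (0.0941), and that of Gzma without any 1 of 6 libraries, those of EV, K198Q and K198R (at most 0.231), and its counts were near the filter. K198R was below Pax5Wt for Nkg7 (−1.15 ± 0.22, SE, n = 2, limma adjusted p = 0.0404), 1 of 5 genes where 2.87% of all genes were called and 2.10% called lower. Ccl5 went the other way, 1.94 ± 0.91 higher with K198R (log2, SE, n = 2, limma adjusted p = 0.450). With a library left out the Ccl5 difference ranged from 0.35 to 3.52, the highest being without K198R replicate 2. The replicate block added Gzma (−2.31, adjusted p = 0.0425), where it called 7.52%. The Nkg7 call was lost on leaving out each of 7 of the 8 libraries, all but K198R replicate 1 (adjusted p 0.0703 to 0.265). K198Q and Pax5Wt gave 0 calls of 5 by limma, with 0 at an unadjusted p under 0.05, where 0.0225% of all genes were called and 3.46% had an unadjusted p under 0.05. Nkg7 was 0.45 ± 0.22 higher with K198Q (log2, SE, n = 2, limma adjusted p = 1), and the p does not show that the 2 constructs act alike.

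Pax5 RNA differed between the constructs. The Pax5 transcript was at 2201 and 2103 normalized counts with EV, 6458 and 6152 with Pax5Wt, 8918 and 8963 with K198Q and 21160 and 16610 with K198R. The K198R libraries, with the lowest Nkg7, thus had the most Pax5 RNA, although K198Q libraries had more Pax5 RNA than Pax5Wt libraries and also more Nkg7. The part of the Pax5 level in these differences was not tested. The 15 myeloid genes summed to 6160 and 4320 with EV, 2080 and 1500 with Pax5Wt, 4430 and 3170 with K198Q and 2070 and 765 with K198R, an order like that of Nkg7, and their part was not tested either.

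**Figure D4:**
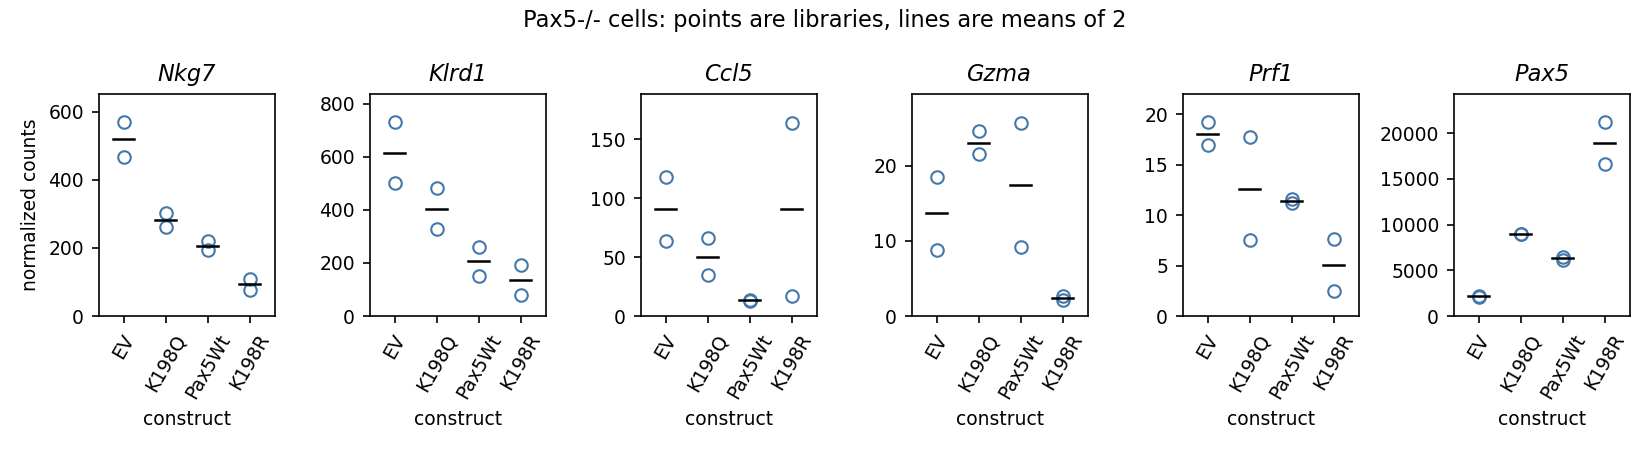
Normalized counts of Nkg7, Klrd1, Ccl5, Gzma, Prf1 and Pax5 in the 8 Pax5-/- libraries by construct, with 1 point per replicate and a bar at the mean. Nkg7 falls in the order EV, K198Q, Pax5Wt and K198R without overlap, while Pax5 is highest with K198R, at 21160 and 16610.

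Of the wider NK lists in Pax5-/- cells, K198R, which lowered 6.05% and raised 3.87% of all genes against EV, lowered 7 of 12 receptor and adaptor genes, including Tyrobp, the gene of the adaptor DAP12 (log2 difference −3.06, limma adjusted p = 0.00356), Cd96 (−3.29, adjusted p = 0.0147) and Fcer1g (−2.48, adjusted p = 0.00322). It lowered 7 of 10 transcription factors, including Tox (−4.09, adjusted p = 0.00705), Runx3 (−1.47, adjusted p = 4.24e-04) and Id2 (−1.93, adjusted p = 0.0178), and raised Ets1 (1.27, adjusted p = 0.00240). It lowered 7 of 11 cytokine and chemokine receptors, including Il2rb (−3.11, adjusted p = 5.58e-04) and Il18r1 (−3.18, adjusted p = 0.00370), 3 of 13 granule genes, including Ctsw (−2.64, adjusted p = 0.0164), and none of 4 cytokines. Pax5Wt lowered Il2rb (−1.99, adjusted p = 0.00753) and Runx3 (−0.92, adjusted p = 0.00618) and raised Ets1 (1.22, adjusted p = 0.00597) and Tcf7 (2.34, adjusted p = 0.00838), and none of the 12 receptor and adaptor genes passed, where 3.25% of all genes were called. K198Q changed Ets1 alone of these lists (0.93, adjusted p = 0.0362), where 0.922% of all genes were called. In the same K198R comparison 5 of 11 T cell and 4 of 7 myeloid genes were lowered, and 11 of 15 B lineage genes were raised.

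Binding of PAX5 near the 10 genes was read from 6 peak lists of anti-PAX5 ChIP-seq in the Pax5-/- cells, 2 each for Pax5Wt, K198Q and K198R, which held 3750 to 13997 peaks. The peaks were called by the authors for each library over its input. The list deposited with K198R replicate 2 has the number 3 in its peak names, so which replicate it holds rests on the deposit alone. With a window of 10 kb on both sides of the gene, 1 of the 10 genes, Nkg7, had a peak in any list, against 11615 of 21924 protein-coding genes (53.0%). No gene of the 10 had a peak within its own body, against 42.2% of protein-coding genes. Within 50 kb there were 5 (Ccl5, Eomes, Klrd1, Nkg7 and Tbx21), against 68.6%. The K198Q lists were shorter than the others, with 3750 and 3957 peaks against 10646 to 13997, so the lack of a peak there is no measure of occupancy.

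The peak nearest to Nkg7 had its summit 7.0 kb downstream of the Nkg7 start, beside another gene. It was listed for Pax5Wt in both replicates, with a fold enrichment of 4.81 (−log10 q = 5.80) and 8.02 (14.3), and for K198R replicate 1 with 4.45 (7.23), and was in neither K198Q list nor that of K198R replicate 2. Its summits lay 17, 14 and 28 bases upstream of the start of Etfb, the gene of a mitochondrial electron carrier. Peaks in 1 or 2 lists lay at 28.5 kb (K198R replicate 1) and at −28.6 and −28.9 kb (K198R replicate 1 and Pax5Wt replicate 2), and farther off at −44.5 and −44.1 kb (K198R replicate 1) and −44.4 kb (Pax5Wt replicate 2). A stronger peak lay at 29.4 kb, within the body of Vsig10l, with a fold enrichment of 5.54 and 16.0 for Pax5Wt, 5.81 for K198Q replicate 2, and 10.6 and 8.52 for K198R. For Nkg7, the gene of the 10 that was called lower with both Pax5Wt and K198R, the sequences shown are the nearest PAX5-bound stretch, beside Etfb, and the one in the most lists within 50 kb, in Vsig10l, which was in 5 of 6. They are read from the plus strand of mm10, chr7:43443919-43444082 up to the first exon of Etfb and chr7:43466360-43466659 in Vsig10l, with the 21 bases around the Pax5Wt replicate 2 summit in capitals. The Vsig10l stretch is a 300-base window on that summit and is not cut at exon bounds. The word exon in its label was not checked, since the summit was placed only within the gene body.
Etfb side: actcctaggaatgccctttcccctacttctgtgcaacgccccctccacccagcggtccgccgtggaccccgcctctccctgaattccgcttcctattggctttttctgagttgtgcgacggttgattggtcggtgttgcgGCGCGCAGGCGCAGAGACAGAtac
Vsig10l exon: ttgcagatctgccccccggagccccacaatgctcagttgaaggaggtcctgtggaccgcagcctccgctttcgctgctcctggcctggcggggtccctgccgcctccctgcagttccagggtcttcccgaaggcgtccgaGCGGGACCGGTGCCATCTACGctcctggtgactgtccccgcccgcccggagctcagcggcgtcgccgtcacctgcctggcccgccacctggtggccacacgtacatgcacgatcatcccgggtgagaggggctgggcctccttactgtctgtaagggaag

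The letters GCNTGAC, a core of the PAX5 recognition sequence, were searched on both strands of 300-base windows around each summit. They were in 17.9 to 22.9% of the windows of the 6 lists and in 10.7% of 32851 RefSeq promoters of the same length, and in none of the 4 windows around Pax5Wt replicate 2 summits within 50 kb of the Nkg7 start, which says only that these letters are not in them. Of 9 promoter entries of 8 of the 10 genes 3 held them (33.3%), the 2 overlapping entries of Ncr1 and that of Gzmb. For the T-box factors the letters GGTGTGA were searched on both strands of the RefSeq promoters (250 bases before to 50 after the start, GRCm38.p6). Of the same 9 promoter entries 1 held them, that of Nkg7, against 3.98% of all 32851 promoters. The match is shown in capitals within 30 bases of the plus strand (chr7:43437113-43437142), as the only such match among the promoters of these genes. These bases lie downstream of the Nkg7 start used for the peak distances (43437073), since the promoter entry has another start.
Nkg7 promoter: gggggtagggaaGGTGTGAgaagaatcaga

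In the cultured pro-B cells the filter left Nkg7, Klrd1 and Ccl5. Prf1 did not exceed 6.83 normalized counts and Tbx21 and Eomes 2.06, and the other 4 genes were not analysed here. Sirt7 was at 1324 and 905 in Wt and 325 to 407 in Sirt7-/- libraries. Nkg7 was at 17.3 and 5.03 in Wt EV, 129 and 25.4 in Sirt7-/- EV, 137 and 40.3 in Sirt7-/- Pax5Wt and 373 and 75.8 in Sirt7-/- K198R cells. Replicate 1 was 3.43, 5.08, 3.40 and 4.92 times replicate 2 in these 4 groups, and 0.315% of all genes tested were at least 2-fold higher in replicate 1 in all 4 groups. Klrd1 was at 8.40 and 3.30, 16.1 and 14.9, 4.01 and 10.5, and 5.87 and 3.09 in the same order, and Ccl5 at 2.09 and 41.2, 11.2 and 25.5, 23.3 and 8.58, and 15.7 and 17.0, with no common order of the replicates.

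None of the 3 genes was called by limma between Sirt7-/- EV and Wt EV, where 0.557% of all genes were called and 9.68% had an unadjusted p under 0.05. Nkg7 was higher in both Sirt7-/- libraries, by 2.48 ± 1.05 (log2, SE, n = 2, limma adjusted p = 0.499, 1 gene of 3 at an unadjusted p under 0.05), and was called with the replicate number as a block (adjusted p = 0.0115), where 2.11% of all genes were called. In Sirt7-/- cells Pax5Wt against EV gave 0 of 3 by limma with 0 at an unadjusted p under 0.05, against 0.0366% and 9.91% of all genes. K198R against EV also gave 0 of 3 by limma, with Klrd1 alone at an unadjusted p under 0.05 (−1.64 ± 0.68, SE, n = 2, limma adjusted p = 0.251), a gene that reached 10 normalized counts in both libraries of EV alone and so passed the filter through that group, against 4.83% and 18.4% of all genes. K198R against Pax5Wt gave 0 of 3 by limma with 0 at an unadjusted p under 0.05, against 0.425% and 8.78%. Nkg7 with K198R differed from EV by 1.53 ± 1.05 here (SE, n = 2, limma adjusted p = 0.511, and 0.0194 with the replicate block, which called 11.6% of all genes), opposite in sign to the fall in Pax5-/- cells. The 2 tables were normalized separately, and the difference between them was not tested. Of the wider NK lists, K198R against EV in Sirt7-/- cells raised Slamf7 (3.10, limma adjusted p = 0.0169), 1 of 6 receptor and adaptor genes. It lowered 1 of 11 granule genes, Srgn, and 3 of 11 transcription factors, Zbtb16, Prdm1 and Tcf7. None of 7 cytokine and chemokine receptors and not the 1 cytokine tested were called, where 4.83% of all genes were called.

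**Figure D5:**
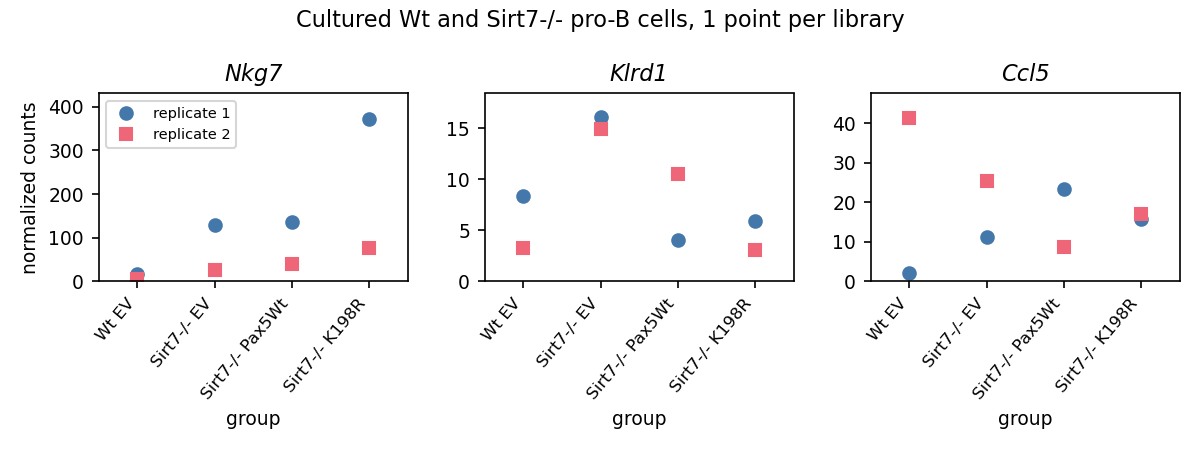
Normalized counts of Nkg7, Klrd1 and Ccl5 in the 8 cultured Wt and Sirt7-/- libraries, with points for the replicates of each group. Replicate 1 is above replicate 2 for Nkg7 in all 4 groups, 3.40 to 5.08 times.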

How the data were processed

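The deposited RNA-seq signal was made by the authors from Salmon estimates (GC-bias model, mm10), read in through Tximeta and divided by DESeq2 size factors. In the table of sorted cells all values (100%) were whole multiples of 1 read (tolerance 0.01 read), and edgeR 4.0.16 and DESeq2 1.42.0 were run on those reads as alternatives. Genes with at least 10 normalized counts in 2 of 8 libraries were tested (17649 sorted, 13345 Pax5-/- and 13651 cultured Sirt7-/- and Wt) with limma 3.58.1 on log2(normalized count + 1), 4 groups in one fit, and Benjamini-Hochberg adjustment over all of them in each of 15 comparisons. A fold change on this scale understates that of low genes. With 2 against 2 an exact permutation test cannot go below p = 0.33. The script was tested on simulated counts. Same-numbered sorted libraries of a genotype came from the same mouse by the labels, which gives the mouse block. By the study's methods RNA-seq replicates were made on different days, and same-numbered cultures deviated together across genes (r = 0.264 to 0.383 in Pax5-/- and 0.156 to 0.428 in cultured Sirt7-/- and Wt groups), so the number was also used as a block there. ChIP-seq peaks were the authors' MACS2 calls after Bowtie2, with fold enrichment, signal, score and −log10 p and q values as deposited, of which fold and −log10 q were used. Columns of exon lengths, gene positions and sequences came from GENCODE M21 and RefSeq (GRCm38.p6). All 10 genes were described, and the genes named from other lists as called lower or higher were leading calls. Those named for their values in single libraries, such as Klrk1, Cd3e, Trdc and Siglech, were not chosen by a call. The genes, lists and comparisons were chosen with earlier results of these data known. One marker gene, and its part in the sort gates, is not reported here.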

Additional observations from a re-analysis of the deposited data

How the results depend on the processing

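Called in either direction by limma, the genes among the 10 numbered 3 from pro-B to pre-B in Wt mice, 2 in Sirt7-/- mice, 1 for Pax5Wt and 2 for K198R against EV, 2 for K198R against K198Q and 1 for K198R against Pax5Wt in Pax5-/- cells. With a pseudocount of 5 the first was 1 and K198R against K198Q was 1. Without the filter on low values the counts were 0 in Sirt7-/- mice, 1 for K198R against K198Q and 0 for K198R against Pax5Wt. At an absolute log2 difference of at least 1.5 they were 1 in Sirt7-/- mice, 0 for Pax5Wt against EV and 0 for K198R against Pax5Wt. On the recovered reads edgeR gave 1 in Wt and 1 in Sirt7-/- mice, and DESeq2 gave 7 in Wt mice and 3 for Sirt7-/- against Wt in pre-B cells. Leaving out each library or mouse in turn gave 0 to 7 for the stages in each genotype, 0 to 3 for Sirt7-/- against Wt in pre-B cells and for Pax5Wt against EV, 1 to 3 for K198R against EV, 0 to 2 for K198R against K198Q and 0 to 1 for K198R against Pax5Wt. A peak was counted for 0 genes within gene bodies and for 5 within 50 kb.

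With the replicate block the count was 2 for Pax5Wt and 4 for K198R against EV and 2 for K198R against Pax5Wt in Pax5-/- cells, 1 for Sirt7-/- EV against Wt EV and 1 for K198R against EV in Sirt7-/- cells. With the number as a block it was 5 in Wt and 1 in Sirt7-/- mice for the stages, and with the mouse as a block 7 in Wt mice. For K198R against K198Q the replicate block gave 3, and the blocks moved no other count by over 1.5 times.

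Several log2 differences fell to 0 or turned sign. On leaving out each library or mouse in turn, that of Sirt7-/- against Wt in pre-B cells ranged from −0.84 to 4.91 for Gzma, 0.00 to 5.07 for Gzmb, 0.00 to 6.93 for Ncr1 and 0.00 to 3.53 for Tigit. The stage difference in Sirt7-/- mice ranged from −4.14 to 0.53 for Ccl5, −4.36 to 0.80 for Eomes, −3.75 to 1.33 for Gzmb, −5.24 to 0.72 for Klrd1 and −6.23 to 0.70 for Ncr1, and was 0.042 by edgeR and 0.03 by DESeq2 for Gzmb. The difference between genotypes in that step ranged from −0.98 to 4.09 for Gzmb and −0.51 to 6.42 for Ncr1. Where a group was left with 0 reads, that end of the range is set by the pseudocount and is no measured fold.

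Over all genes tested, the calls were 1324 for K198R against EV in Pax5-/- cells (612 at the log2 limit of 1.5, 2834 with the replicate block, 567 to 1477 with a library left out), 668 for K198R against K198Q (337, 387 without the filter, 1749, 32 to 916), 383 for K198R against Pax5Wt (213, 231, 1004, 21 to 573), 434 for Pax5Wt against EV (203, 260, 1343, 89 to 664), 123 for K198Q against EV (73 without the filter, 363, 31 to 155) and 3 for K198Q against Pax5Wt (29 with the block, 0 to 2). In the cultured cells they were 659 for K198R against EV (346, 423, 1588, 63 to 642), 58 for K198R against Pax5Wt (36, 16, 314, 2 to 38), 5 for Pax5Wt against EV (268 with the block, 1 to 5) and 76 for Sirt7-/- against Wt (44 without the filter, 288, 3 to 73). In the sorted cells they were 7090 for the stages in Wt mice (2451 at the log2 limit, 2820 to 7323), 6293 in Sirt7-/- mice (1809, 1679 to 6054), 15 between genotypes in pre-B cells (7 with the block, 5 by edgeR, 726 by DESeq2, 0 to 195), 11 in pro-B cells (129 by DESeq2, 0 to 14) and 1 for the interaction (0 with the mouse block, 104 by DESeq2, 0 to 14). The cause of these shifts was not tested. Leaving out both libraries of 1 sorted mouse was chosen after its values were seen. With 2 libraries per group, and with 0 to 4 reads behind several Wt pre-B values, depth and replication limit every fold change given for pre-B cells.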

Other observations

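The genes with the profile most like that of the 10 over the 8 sorted libraries, by Pearson correlation with the mean of their scaled log2 values, were Cd209d (r = 0.992), a C-type lectin gene, Mpeg1 (0.989), the gene of the macrophage pore protein perforin-2, Il2rb (0.988), Klrk1 (0.986) and Ctsw (0.985), among 13633 genes compared. Cd209d was at 20.6 and 22.4 normalized counts in Wt and 18.3 and 138 in Sirt7-/- pro-B cells, and had reads in the Sirt7-/- replicate 2 library alone among pre-B cells, at 130. The libraries share mice, and the high points of each profile are those of replicate 2.

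In Pax5-/- cells the closest to the 5 genes tested were P2ry14 (0.994), the gene of a receptor for UDP-sugars, Slc8a1 (0.991), Klri1 (0.990), an NK receptor gene, Il1rl2 (0.990) and Agpat2 (0.988), among 12307 genes. In the cultured Wt and Sirt7-/- cells the closest to the 3 genes tested were Ccdc40 (0.950), Ociad2 (0.943), Map3k13 (0.940) and Lair1 (0.939), among 12694. These correlations are over 8 libraries in 4 groups and are given as descriptions with no test.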
